A study of Rattus norvegicus with 15 samples.

Results

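The comparison described here set rat lung with LPS injury against normal rat lung, gene by gene, over transporters, receptors, transcription factors and pathways. It used 10 of the 15 RNA sequencing libraries of the series, chosen by their labels: 5 of wild-type rats with acute lung injury (ALI 1 to 5), in which lipopolysaccharide (LPS, a cell wall component of gram-negative bacteria) was given into the trachea, and 5 of normal wild-type rats (control 4 to 8). The 5 libraries of rats that also received the herbal formula Sang Ju Yin by mouth entered only the estimate of the spread between replicates. The labels name no strain, sex, age, dose, hour after LPS or time of day and no control that received vehicle into the trachea, and do not state if each library is 1 rat or a pool of several, so the p-values measure only the spread between these libraries. The agent and the act of giving it into the trachea cannot be told apart. Values are FPKM (sequenced fragments scaled for gene length and library size). Genes with at least 1 FPKM in at least 5 of the 10 libraries were tested, which left 13204 of the 22250 genes of the deposited table. Of these, 11210 reached 1 FPKM in all 10 libraries. A further 19 reached it in no control library and 22 in no ALI library, so these 41 passed only through the group in which they were high.

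LPS is recognised by Toll-like receptor 4 with CD14 and MD-2 on macrophages and epithelium, and the signal runs through NF-kB and MAP kinases to cytokines and chemokines that draw neutrophils from blood into the airspaces. The injured alveolus is known for leak across endothelium and epithelium, for loss of surfactant and ion transport by epithelial cells, and for a high demand on protein synthesis and secretion in activated cells. A piece of lung holds all of these cells together. In bulk tissue, fewer cells of a type and less RNA per cell cannot be told apart.

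Summed FPKM ran from 495244 to 700068 over the 10 libraries, and 11865 to 13313 genes reached 1 FPKM. ALI 1 stood apart: genes of the mitochondrial genome took 37.7% of its summed FPKM, against 8.31 to 14.1% in ALI 2 to 5 and 5.19 to 9.62% in the controls, and it had the fewest genes at 1 FPKM. The tissue label was checked on 6 lung genes (the surfactant proteins Sftpc, Sftpb and Sftpa1, the alveolar marker Ager, the airway marker Scgb1a1 and the endothelial junction gene Cldn5, which is listed at 0 in all 10 libraries and may be a failed estimate), whose summed level was 27158 to 38645 FPKM in control and 12819 to 25814 FPKM in ALI, lowest in ALI 1. Of these lung genes, Sftpb, Ager and Scgb1a1 were called lower in the test below, while Sftpc and Sftpa1 were not called. The sum of 6 neutrophil markers (S100a8, S100a9, Csf3r, Cxcr2, Mmp8 and Il1r2) was 43.4 to 85.1 FPKM in control and 1262 to 15821 FPKM in ALI, highest in ALI 1. Heart and skeletal muscle markers stayed at or below 32.8 FPKM in sum, and thymus and lymph node markers at 33.2 to 48.6 FPKM, except 192 FPKM in ALI 3. Markers of oesophagus or skin epithelium stayed at or below 6.63 FPKM and those of fat and thyroid at or below 2.99 FPKM. The sum of 4 erythroid markers was 365 to 6606 FPKM in control and 2093 to 7210 FPKM in ALI. The part of these cell markers in the gene results below was not tested.

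Limma called 2331 of 13204 genes at a Benjamini-Hochberg adjusted p under 0.05, which is 17.7%: 1040 higher in ALI (7.88%) and 1291 lower (9.78%). With a change of at least 2-fold as well, 334 genes were higher (2.53%) and 395 lower (2.99%). In 805 genes (6.1%) all 5 ALI values lay above all 5 control values, and in 903 (6.84%) all lay below. Fold changes are log2 differences of group means of log2(FPKM + 1), which understate the change of low genes. The median over all genes tested was -0.13. With median-of-ratios scaling, which sets the typical gene to no change, it was -0.003, and the calls were 1419 higher (10.8%) and 1253 lower (9.53%) of 13146 genes, so that the excess of falls turned into an excess of rises. Without ALI 1 the calls were 1182 higher (8.95%) and 1059 lower (8.02%). Falls were also outnumbered without control 5 (823 higher and 721 lower), 6 (815 and 779), 7 (797 and 736) or 8 (827 and 754), and in a fit of these 10 libraries alone (700 and 607). Counts of list members are therefore read against these shares and against the median of -0.13. In the following, "rose" and "fell" are used only of genes called with all libraries. A value in parentheses after a gene is its log2 fold change ± SE. Except where it is said otherwise, a gene named had all 5 ALI values on one side of all 5 control values and the same call without ALI 1 and with median-of-ratios scaling. Where leaving out 1 library ended a named gene's call or moved its fold change by over 1.5 times, that library is given. For lists, the same is given where a count that was at least 4 in either fit moved by over 1.5 times, or the majority turned from rises to falls or back, with 1 library left out or with median-of-ratios scaling. Genes that met these conditions and had at least 5 FPKM on average in the higher group numbered 614 higher (4.65%) and 478 lower (3.62%).

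**Figure D1:**
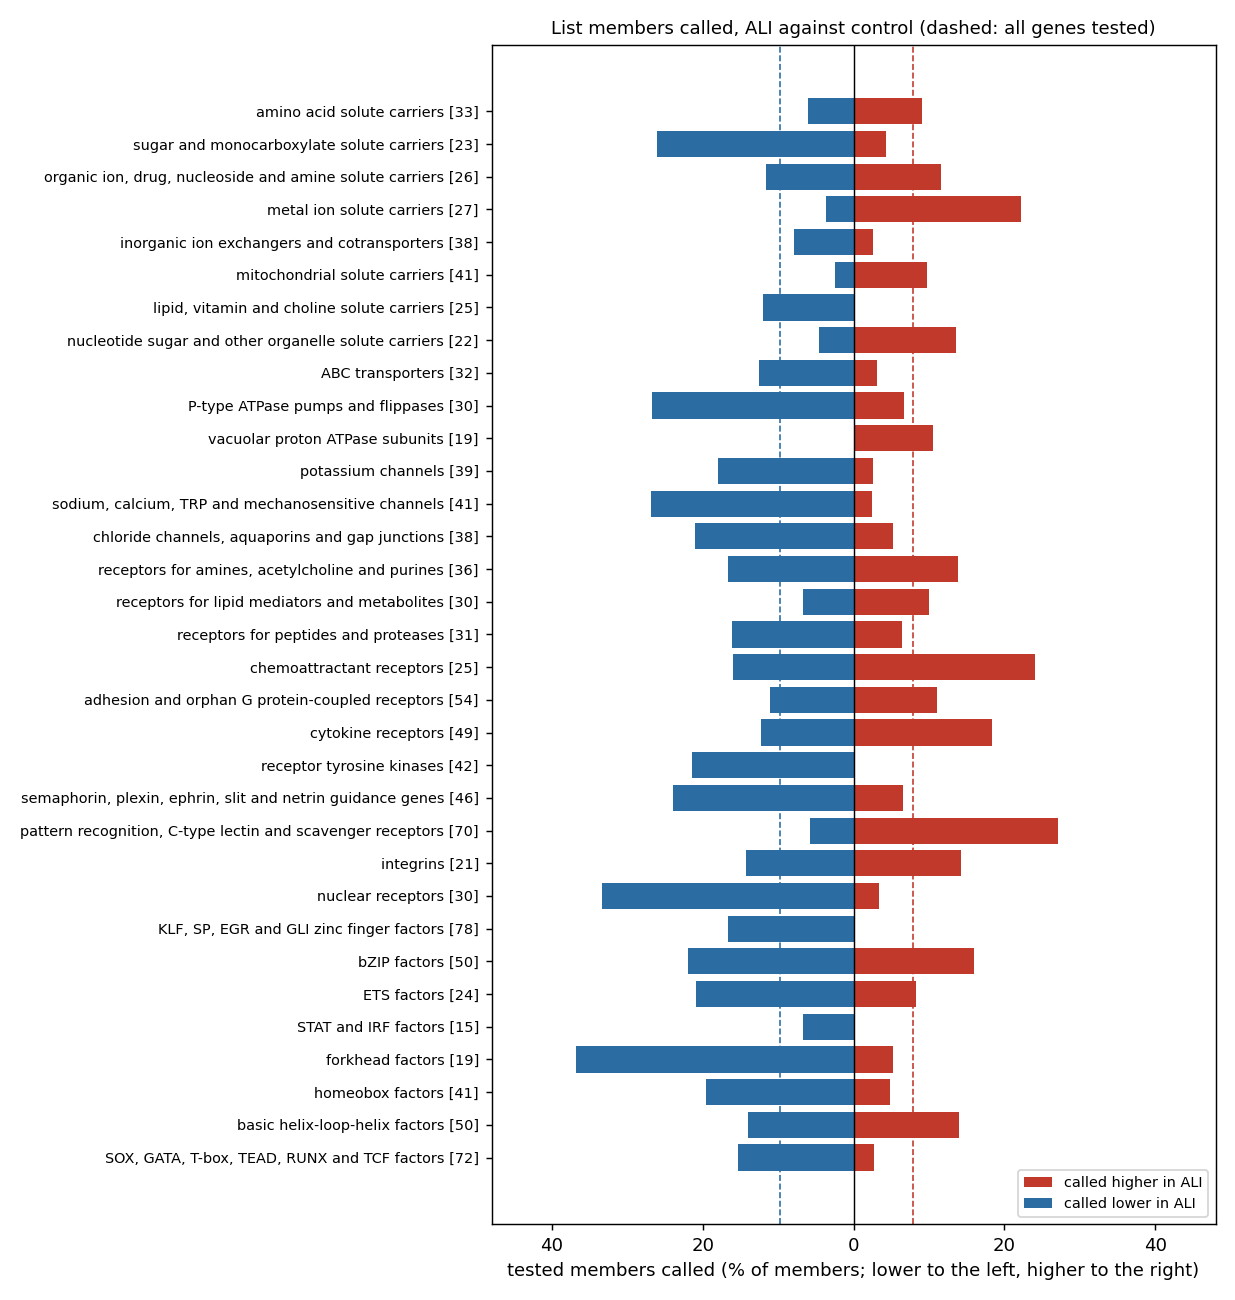
Share of the tested members of each transporter, receptor and transcription factor list called lower (bars to the left) and higher (bars to the right) in ALI than in control, in percent of the members tested (number in brackets). The dashed lines mark the shares over all genes tested, 9.78% lower and 7.88% higher. Receptor tyrosine kinases and KLF, SP, EGR and GLI factors had no member called higher.

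Promoter sequence from RefSeq (rat build GRCr8) is shown for 5 genes, because these genes are described below and hold letters known as the binding motif of a stress, inflammatory or growth control factor. Each window holds the 250 bases before the start of the gene, 5′ to 3′ on the gene's strand, and capitals mark the motif. Single windows were found for 9911 of the tested genes. Both strands were searched for the NF-kB motif GGGNNTTTCC, the ER stress element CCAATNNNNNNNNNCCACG and the TEAD motif GGAATG. The CARE, E-box and STAT motifs (TGATGNAA, CACGTG and TTCNNNGAA) were searched as well. Pla2g2a, a secreted phospholipase A2, and Fscn1, the actin bundling protein fascin, hold the NF-kB letters. Calr and Hspa5, which encode the endoplasmic reticulum (ER) chaperones calreticulin and BiP, hold the ER stress element. Ccn2, a target of the Hippo pathway factors YAP and TEAD, holds the TEAD letters at 3 places, beginning 166, 101 and 92 bases before the start. The windows lie at chr5:156359475-156359724 (plus strand), chr12:16723735-16723984 (minus strand), chr19:40213117-40213366 (plus strand), chr3:38452766-38453015 (plus strand) and chr1:22624615-22624864 (minus strand), in the order printed.
Pla2g2a: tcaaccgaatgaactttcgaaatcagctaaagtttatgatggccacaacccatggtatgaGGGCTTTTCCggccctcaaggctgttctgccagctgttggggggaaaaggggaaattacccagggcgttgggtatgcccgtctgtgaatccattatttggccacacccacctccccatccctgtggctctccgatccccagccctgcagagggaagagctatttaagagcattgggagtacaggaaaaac
Fscn1: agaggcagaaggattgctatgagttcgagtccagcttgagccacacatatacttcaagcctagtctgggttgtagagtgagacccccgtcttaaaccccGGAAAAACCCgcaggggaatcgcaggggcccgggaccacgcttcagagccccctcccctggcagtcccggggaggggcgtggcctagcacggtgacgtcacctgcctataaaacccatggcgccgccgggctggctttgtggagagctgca
Calr: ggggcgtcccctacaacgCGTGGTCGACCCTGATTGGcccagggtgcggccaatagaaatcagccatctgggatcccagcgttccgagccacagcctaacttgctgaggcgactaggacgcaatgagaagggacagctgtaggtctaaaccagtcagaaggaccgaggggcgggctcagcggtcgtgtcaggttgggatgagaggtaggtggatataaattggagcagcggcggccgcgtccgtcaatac
Hspa5: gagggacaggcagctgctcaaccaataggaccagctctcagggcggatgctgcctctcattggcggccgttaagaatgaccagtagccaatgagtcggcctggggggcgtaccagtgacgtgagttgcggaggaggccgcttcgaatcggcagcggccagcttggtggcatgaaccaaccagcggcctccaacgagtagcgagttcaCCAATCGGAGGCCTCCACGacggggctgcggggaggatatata
Ccn2: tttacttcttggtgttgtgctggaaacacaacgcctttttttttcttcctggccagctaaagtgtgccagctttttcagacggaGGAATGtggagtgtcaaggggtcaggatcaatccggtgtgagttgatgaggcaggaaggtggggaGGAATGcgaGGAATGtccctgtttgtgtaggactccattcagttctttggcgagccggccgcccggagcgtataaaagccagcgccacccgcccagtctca
The NF-kB letters stood in 1.27% of all 27457 RefSeq windows, in 3.23% of the windows of 805 genes called higher, in 1.34% of 973 called lower and in 1.5% of 8133 not called. The TEAD letters stood in 11.9% of all windows, in 12.3% of the higher, 12.4% of the lower and 9.5% of the uncalled genes. The ER stress element stood in 0.0692% of all windows and in 15 tested genes, of which 7 were called higher and 1 lower. CARE stood in 2.11% of the higher, 1.54% of the lower and 1.86% of the uncalled genes. In the same order the E-box stood in 7.58, 7.4 and 8.08%, and the STAT motif in 5.71, 4.83 and 6.11%. These shares describe letters in these windows and were not tested.

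Rises outnumbered falls among genes of protein folding in the endoplasmic reticulum. Of 48 genes of the unfolded protein and integrated stress response, 16 rose and 3 fell, with a list median of 0.03 beside -0.13 over all genes. Calreticulin, Calr, a calcium-binding lectin chaperone of the ER, measured 344, 268, 325, 241 and 320.5 FPKM in control 4 to 8 and 554, 604, 613, 686 and 459 FPKM in ALI 1 to 5, a log2 fold change of 0.96 ± 0.13 (SE, adjusted p = 0.000243). No ALI value reached down to a control value. Sdf2l1, an ER protein that keeps clients from aggregating with BiP and its partners, measured 26.9, 17.7, 19.4, 17.6 and 17.7 FPKM in control 4 to 8 and 45.7, 46.3, 65.4, 34.6 and 42.7 FPKM in ALI 1 to 5, a log2 fold change of 1.19 ± 0.16 (SE, adjusted p = 0.000188). ALI 3 was the highest, and ALI 4, the lowest of the injured lungs, was still above control 4, the highest control. Chosen after their values were seen, 4 more chaperone genes rose by less: Pdia4, a disulfide isomerase (0.78 ± 0.17), Dnajb11, a BiP cochaperone (0.69 ± 0.12), Hsp90b1, the ER form of HSP90 (0.64 ± 0.14), and Hspa5 itself (0.66 ± 0.17). Pdia4 and Hspa5 overlapped between the groups. The members that fell were of another kind: Vldlr, a lipoprotein receptor (-1.05 ± 0.23), Trib3, a pseudokinase, and Atf3, a stress-induced bZIP factor (-1.78 ± 0.44). Of these 3 falls only 1, Vldlr, met the naming rule, and Trib3 is listed by its call with all libraries alone. Atf3 was added after its value was seen and overlapped between the groups. Of the 15 tested genes with the ER stress element, those called higher were Calr, Hspa5, Hsp90b1, Creld2, Dnajc3, Birc5 and Hnrnpa3. The first 5 serve ER folding. These 7 are listed by their call with all libraries alone, and 4 of them met the naming rule, Calr and Hsp90b1 among them. Xbp1, a transcription factor of the response, and the lectin chaperone Canx also hold it and were not called.

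Of 45 proteasome subunits, 16 rose (35.6%, against 7.88% of all genes) and 0 fell, with a median of 0.34. Psmb2, a subunit of the catalytic core, rose from 77.9 ± 8.77 to 122.5 ± 12.7 FPKM (mean ± SD, n = 5 each), a log2 fold change of 0.65 ± 0.11 (SE, adjusted p = 0.00101). Psma3l, a copy of an alpha ring subunit whose reads may be shared with Psma3, rose as well (0.63 ± 0.16), as did Psmb10, a subunit of the immunoproteasome chosen after its value was seen (0.79 ± 0.16), with overlap between the groups. Cytosolic ribosomal proteins had 5 rises and 0 falls among 85 genes, so that 5.88% were higher, below the 7.88% of all genes. Their median was 0.16, and Rps2 (0.75 ± 0.14) and Rpl12 (0.56 ± 0.12) met the naming rule. Mitochondrial ribosomal proteins had 11 rises and 0 falls among 73, led by Mrps6 (1.01 ± 0.20) and Mrpl42 (0.55 ± 0.13). Among 91 translation factors and tRNA synthetases, 12 rose and 1 fell. Eif4ebp1, an inhibitor of cap-dependent translation (0.96 ± 0.18), and Eif5a, an elongation factor (0.80 ± 0.18), were the largest rises that met the naming rule. Ubiquitin ligases and deubiquitinases had 4 rises and 26 falls among 240, so that 10.8% were lower against 9.78% of all genes, and 1.67% higher against 7.88%. Otud1, a deubiquitinase, fell from 34.96 ± 6.39 to 12.3 ± 4.704 FPKM (-1.49 ± 0.22), while Fbxl5, the F-box protein that senses iron, rose (0.95 ± 0.17). Klhl2 rose (0.43 ± 0.11) and Rnf39 fell (-0.95 ± 0.22). Of 37 autophagy genes 1 was called, Gabarap, a lipidated autophagosome protein (0.53 ± 0.10). Cathepsins and lysosomal hydrolases had 9 rises and 3 falls among 48, with the proteases Ctsz (0.99 ± 0.13) and Ctsb (0.70 ± 0.11) rising. Vacuolar proton ATPase subunits, which acidify lysosomes, had 2 rises and 0 falls among 19, with the membrane subunit Atp6v0c at 234 to 335 FPKM (0.51 ± 0.11). Autophagy genes had 4 rises and 0 falls with median-of-ratios scaling. Cathepsins and lysosomal hydrolases had 5 falls without control 4. Cytosolic ribosomal proteins had 2 to 3 rises without control 5, 6, 7 or 8 or ALI 1, 2 or 3, and 9 to 15 rises without control 4 or ALI 4. Mitochondrial ribosomal proteins had 4 to 7 rises without control 5, 6, 7 or 8 or ALI 2, and 21 to 23 rises without control 4 or ALI 5. Proteasome subunits had 26 rises without control 4. Translation factors had 4 to 7 rises without control 5, 6, 7 or 8 or ALI 1 or 3. Ubiquitin ligases had 9 to 14 falls without control 5, 6, 7 or 8 or ALI 2 or 3, and 40 falls without control 4.

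**Figure D2:**
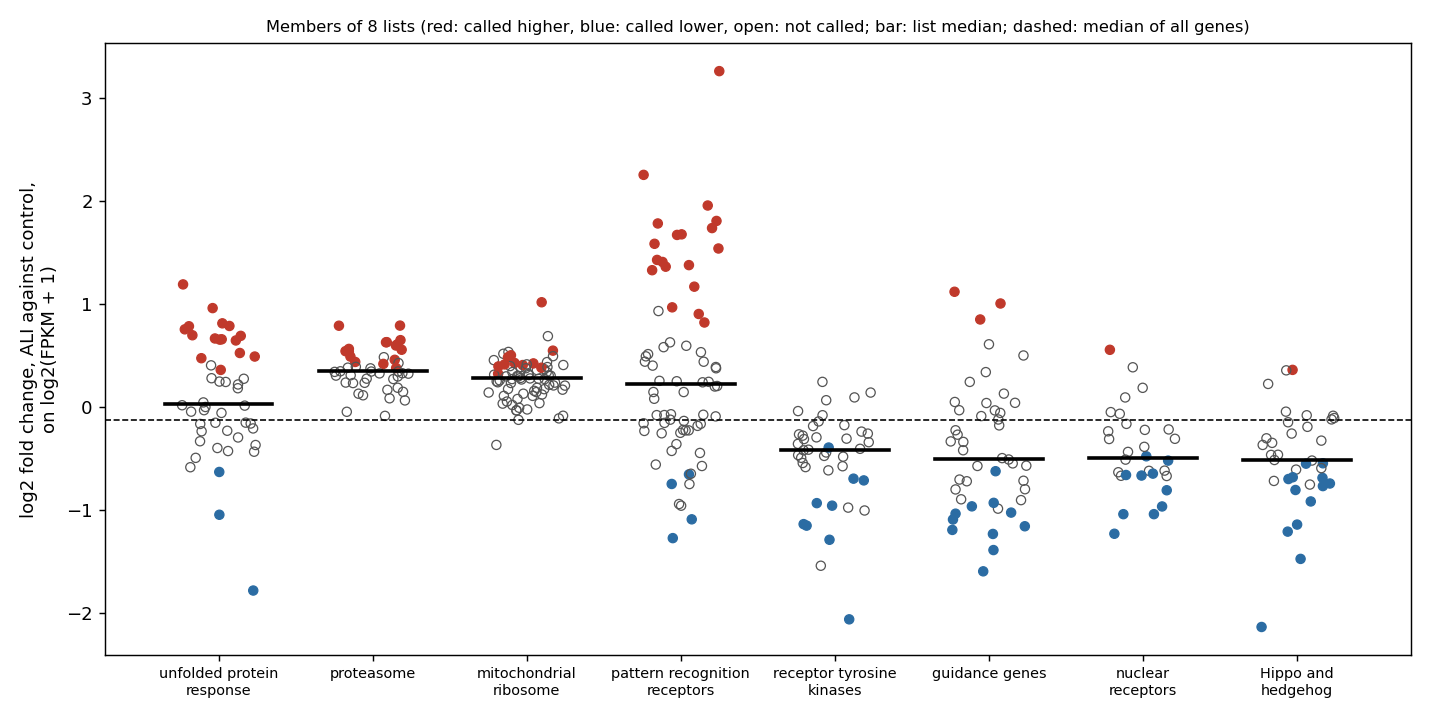
Log2 fold change (ALI against control) of every tested member of 8 lists, one point per gene, filled where the gene was called at an adjusted p under 0.05, with the list median as a bar and the median of all genes, -0.13, as a dashed line. Proteasome and mitochondrial ribosome members called were all higher, and those called among receptor tyrosine kinases were all lower.

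Solute carriers of single classes moved while most did not. Over 433 tested transporters and channels, 30 rose and 58 fell (20.3% called, against 17.7% of all genes), with a median of -0.24. Slc16a3, which encodes the lactate exporter MCT4, measured 5.29, 5.36, 6.405, 7.13 and 5.11 FPKM in control 4 to 8 and 55.7, 27.3, 19.1, 22.6 and 13.6 FPKM in ALI 1 to 5, a log2 fold change of 1.91 ± 0.26 (SE, adjusted p = 0.000197). It was the only rise among 23 sugar and monocarboxylate carriers, of which 6 fell. The sodium-glucose carrier Slc5a1 fell from 8.13 ± 1.83 to 3.05 ± 1.14 FPKM (-1.19 ± 0.21), and the creatine carrier Slc16a12 fell from 18.3 ± 1.01 to 7.76 ± 4.07 FPKM (-1.30 ± 0.29). Among 33 amino acid carriers, 3 rose and 2 fell. Slc7a10, which carries small neutral amino acids such as glycine and serine, fell from 33.4 ± 4.06 to 5.63 ± 4.14 FPKM, a log2 fold change of -2.73 ± 0.45 (SE, adjusted p = 0.000963). Slc38a5, a glutamine carrier, fell as well (-1.71 ± 0.37). The large neutral amino acid carriers Slc7a5 (1.08 ± 0.16) and Slc43a2 (0.56 ± 0.15) rose. Amino acid carriers had 4 falls without control 4 or ALI 5, more falls than rises without ALI 5 (2 and 4), control 4 (2 and 4) or control 8 (2 and 3), and 6 rises and 4 falls with median-of-ratios scaling.

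Metal carriers had 6 rises and 1 fall among 27, and a median of 0.13. Slc39a14, the zinc and iron importer ZIP14, measured 3.25, 2.73, 3.47, 3.47 and 2.75 FPKM in control 4 to 8 and 27.8, 11.8, 18.3, 15.4 and 7.82 FPKM in ALI 1 to 5, a log2 fold change of 1.95 ± 0.32 (SE, adjusted p = 0.000791). Each injured lung was above every control. Slc11a1, which moves iron and manganese out of the phagosome of macrophages and neutrophils, rose from 28.8 ± 5.94 to 65.6 ± 12.9 FPKM (1.16 ± 0.21), and its relative Slc11a2, the ferrous iron carrier DMT1, added after its value was seen, rose from 8.01 ± 0.86 to 16.2 ± 2.48 FPKM (0.93 ± 0.16). Slc39a2, another zinc importer, fell (-1.30 ± 0.37). The sum of neutrophil markers was also higher in ALI than in control, as Slc39a14, Slc11a1 and Slc11a2 were (1262 to 15821 against 43.4 to 85.1 FPKM). Within ALI, where ALI 1 had the highest marker sum, Slc39a14 was highest in ALI 1 and Slc11a2 was lowest there, at 13.5 FPKM. Carriers of nucleosides and peptides split. Slc28a2, a concentrative purine nucleoside carrier, rose from 11.7 ± 2.902 to 41.9 ± 13.04 FPKM (1.74 ± 0.28). The lysosomal peptide carrier Slc15a3 rose (1.09 ± 0.12), whereas its cell surface relative Slc15a2, which takes up di- and tripeptides in airway and alveolar epithelium, fell from 13.3 ± 4.72 to 4.08 ± 1.87 FPKM (-1.54 ± 0.32). Slco1a2, an organic anion carrier, fell (-1.20 ± 0.33). Their list held 3 rises and 3 falls among 26. Slc39a2 lost its call without control 5, 7 or 8 (adjusted p up to 0.0628), and Slco1a2 without control 7 or 8 (adjusted p up to 0.0534). Slc39a2 stood at -0.83 without ALI 1. Organic ion, drug, nucleoside and amine carriers had 5 to 7 falls without control 4 or ALI 4 or 5, and 3 rises and 5 falls with median-of-ratios scaling.

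Slc26a4, the chloride, iodide and bicarbonate exchanger pendrin, measured 2.02, 0.489, 1.15, 1.15 and 2.01 FPKM in control 4 to 8 and 9.804, 7.77, 17.2, 5.38 and 4.03 FPKM in ALI 1 to 5, a log2 fold change of 1.96 ± 0.35 (SE, adjusted p = 0.00151). It was the only rise among 38 inorganic ion exchangers and cotransporters, of which 3 fell. Mitochondrial carriers had 4 rises and 1 fall among 41: the adenine nucleotide carrier Slc25a5 (0.59 ± 0.12) and the citrate carrier Slc25a1 (0.40 ± 0.10) rose, and the pyrimidine nucleotide carrier Slc25a33 fell (-1.29 ± 0.32). Carriers of lipids, vitamins and choline had no rise and 3 falls among 25, with the vitamin C carrier Slc23a2 (-1.0 ± 0.25) and the choline-like carrier Slc44a3 (-1.20 ± 0.25) lower. Carriers of nucleotide sugars and other organelle substrates had 3 rises, Slc37a3 (0.39 ± 0.10) among them, and 1 fall, Slc35e4 (-0.84 ± 0.24), among 22. ABC transporters had 1 rise and 4 falls among 32. None met every condition for naming, and the most abundant was Abca3, the lipid pump of the lamellar body in which surfactant is stored. Abca3 was 105 to 58.6 FPKM in the means (-0.96 ± 0.33) and was not called (adjusted p = 0.0561). Slc35e4 lost its call without control 5 (adjusted p = 0.0637). Abca3 was called without control 4 or ALI 4 or 5 (adjusted p down to 0.029). ABC transporters had 2 falls without control 5, 7 or 8 or ALI 3, 7 falls without ALI 4 or 5, and 1 rise and 7 falls with median-of-ratios scaling. Inorganic ion exchangers and cotransporters had 5 to 6 falls without ALI 4 or 5, and more rises than falls without ALI 1 (2 and 1), ALI 2 (1 and 0), control 5 (1 and 0), control 7 (1 and 0) or control 8 (1 and 0). Mitochondrial carriers had 2 rises without control 7 or 8, 6 falls without ALI 5, more falls than rises without ALI 5 (4 and 6), and 4 rises and 4 falls with median-of-ratios scaling. Carriers of nucleotide sugars had 5 rises without ALI 1, and 6 rises and 1 fall with median-of-ratios scaling.

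Falls outnumbered rises among pumps and channels. P-type ATPases had 2 rises and 8 falls among 30. The calcium and manganese pump Atp2c2 fell (-1.10 ± 0.33), and Atp8b4, a phospholipid flippase, rose (0.82 ± 0.21). Sodium, calcium, TRP and mechanosensitive channels had 1 rise and 11 falls among 41. Scnn1g, the gamma subunit of the epithelial sodium channel that clears alveolar fluid, measured 37.6, 41.5, 33.7, 44.1 and 43.1 FPKM in control 4 to 8 and 5.66, 15.4, 11.9, 23.9 and 22.5 FPKM in ALI 1 to 5, a log2 fold change of -1.42 ± 0.28 (SE, adjusted p = 0.00292). All injured lungs were below all controls. Its alpha subunit Scnn1a, added after its value was seen, fell from 221 ± 35.7 to 94.1 ± 36.6 FPKM (-1.33 ± 0.26). Asic1, an acid-sensing sodium channel, fell (-1.33 ± 0.27). The rise was Trpm2, a calcium channel opened by oxidative stress and abundant in phagocytes (1.05 ± 0.21). Atp2c2 lost its call without control 4, 5, 6, 7 or 8 (adjusted p up to 0.0712). Atp2c2 stood at -0.71 without ALI 1. P-type ATPases had 5 falls without control 6, 7 or 8. Sodium, calcium, TRP and mechanosensitive channels had 4 rises without ALI 1, and 6 to 7 falls without control 5, 7 or 8.

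Potassium channels had 1 rise and 7 falls among 39, with Kcnd3 (-1.50 ± 0.20), a voltage-gated channel, and Kcnj4 (-1.51 ± 0.25), an inward rectifier, falling furthest of those that met the naming rule. Chloride channels, aquaporins and gap junction genes had 2 rises and 8 falls among 38. Aqp5, the water channel of alveolar type I cells, fell from 290.1 ± 38.2 to 114 ± 62.5 FPKM, a log2 fold change of -1.71 ± 0.49 (SE, adjusted p = 0.0257). The summed lung markers stood at 27158 to 38645 FPKM in control and 12819 to 25814 FPKM in ALI. Within the intracellular chloride channel family Clic3 fell (-1.44 ± 0.32) and Clic1 rose (0.96 ± 0.10). Of 9 carbonic anhydrases, which supply bicarbonate to such exchangers, 1 was called, Ca11, a family member without catalytic activity, which fell (-1.69 ± 0.38). Aqp5 lost its call without control 5 (adjusted p = 0.0571). Aqp5 stood at -1.08 without ALI 1. Chloride channels had 5 falls without control 5 or 7. Potassium channels had 4 falls without control 5, and 11 falls without control 4 or ALI 5.

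The share of receptors called was 28.6%, against 17.7% of all genes, and the difference was not tested: of 426 receptors 56 rose and 66 fell, with a median of -0.22. With median-of-ratios scaling they divided into 71 higher and 64 lower, and without ALI 1 into 74 higher and 56 lower, so the direction of the majority depends on both. Ltb4r, which encodes the leukotriene B4 receptor BLT1 that guides neutrophils, measured 1.11, 0.224, 0.467, 0.597 and 0.387 FPKM in control 4 to 8 and 68.9, 9.54, 8.74, 12.98 and 2.19 FPKM in ALI 1 to 5, a log2 fold change of 3.04 ± 0.53 (SE, adjusted p = 0.00146). No control exceeded 1.11 FPKM, and ALI 1 was the highest injured lung. Ptafr, the receptor for platelet-activating factor, measured 6.48, 4.71, 7.93, 6.47 and 6.597 FPKM in control 4 to 8 and 30.5, 23.2, 19.1, 27.96 and 19.5 FPKM in ALI 1 to 5, a log2 fold change of 1.74 ± 0.17 (SE, adjusted p = 1.09e-05). The list of lipid mediator and metabolite receptors held 3 rises and 2 falls among 30. The thromboxane receptor Tbxa2r, added after its value was seen, fell (-0.89 ± 0.26), with overlap between the groups. Tbxa2r lost its call without control 5 or 7 (adjusted p up to 0.0717). Lipid mediator and metabolite receptors had 7 rises and 2 falls with median-of-ratios scaling.

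Purine and amine receptors had 5 rises and 6 falls among 36. P2ry6, a receptor for extracellular UDP on macrophages and epithelium, measured 3.34, 3.16, 4.71, 2.78 and 4.35 FPKM in control 4 to 8 and 13.8, 13.3, 18.5, 12.4 and 19.5 FPKM in ALI 1 to 5, a log2 fold change of 1.82 ± 0.17 (SE, adjusted p = 6.31e-06). The ADP receptor P2ry13 rose from 3.58 ± 1.26 to 9.98 ± 3.896 FPKM (1.25 ± 0.27). Among 31 receptors for peptides and proteases, 2 rose and 5 fell. F2rl2, the thrombin receptor PAR3, measured 0.937, 1.31, 0.492, 1.47 and 1.47 FPKM in control 4 to 8 and 46.2, 17.9, 9.86, 21.4 and 8.24 FPKM in ALI 1 to 5, a log2 fold change of 3.12 ± 0.34 (SE, adjusted p = 2.65e-05). All 5 injured lungs were above the controls. Npr1, the receptor for atrial natriuretic peptide, fell (-0.82 ± 0.24). The other rise of the list, Ramp3, a partner of the calcitonin receptor family chosen after its value was seen, was called with all libraries (1.52 ± 0.47) and not without ALI 1 (1.23, adjusted p = 0.0892). Npr1 lost its call without control 5 or 7 or ALI 3 (adjusted p up to 0.0736), and Ramp3 without control 5, 6, 7 or 8 or ALI 1 or 2 (adjusted p up to 0.0892). Purine and amine receptors had 2 to 3 rises without control 4, 5, 6, 7 or 8 or ALI 3, 2 to 3 falls without control 5, 6, 7 or 8 or ALI 1, and more rises than falls without ALI 1 (6 and 3) or control 5 (3 and 2). Receptors for peptides and proteases had 5 rises without ALI 1, 1 to 3 falls without control 5, 6, 7 or 8 or ALI 2 or 3, and more rises than falls without ALI 1 (5 and 4).

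Chemoattractant receptors had 6 rises and 4 falls among 25, 40% called. Cxcr2, the receptor through which CXC chemokines recruit neutrophils, measured 3.03, 3.16, 4.49, 2.09 and 2.67 FPKM in control 4 to 8 and 79.3, 47.8, 34.03, 60.2 and 18.5 FPKM in ALI 1 to 5, a log2 fold change of 3.45 ± 0.29 (SE, adjusted p = 3.17e-06). Cxcr1, a close relative, fell from 11.6 ± 2.81 to 4.04 ± 1.44 FPKM (-1.36 ± 0.23), and the scavenging receptor Ackr4 fell (-1.54 ± 0.21). Ccr1, on monocytes and neutrophils, rose (1.76 ± 0.33), as did C5ar1, the receptor for the complement fragment C5a, added after its value was seen (1.30 ± 0.15). Neutrophil markers, Cxcr2 among them, stood at 1262 to 15821 FPKM in these ALI libraries and at 43.4 to 85.1 FPKM in control. Adhesion and orphan receptors had 6 rises and 6 falls among 54. Gpr84, a receptor for medium-chain fatty acids on myeloid cells, was 0.377 to 6.19 FPKM in the means (2.28 ± 0.27). It reached 1 FPKM in no control library, so it passed the filter only through ALI, where it was high. Gprc5a, an orphan receptor of lung epithelium, fell from 294 ± 25.3 to 113 ± 59.7 FPKM (-1.65 ± 0.40), and Gpr155 fell (-1.65 ± 0.27). Adhesion and orphan receptors had 10 falls without ALI 5, and 10 rises and 7 falls with median-of-ratios scaling. Chemoattractant receptors had 2 falls without control 6.

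**Figure D3:**
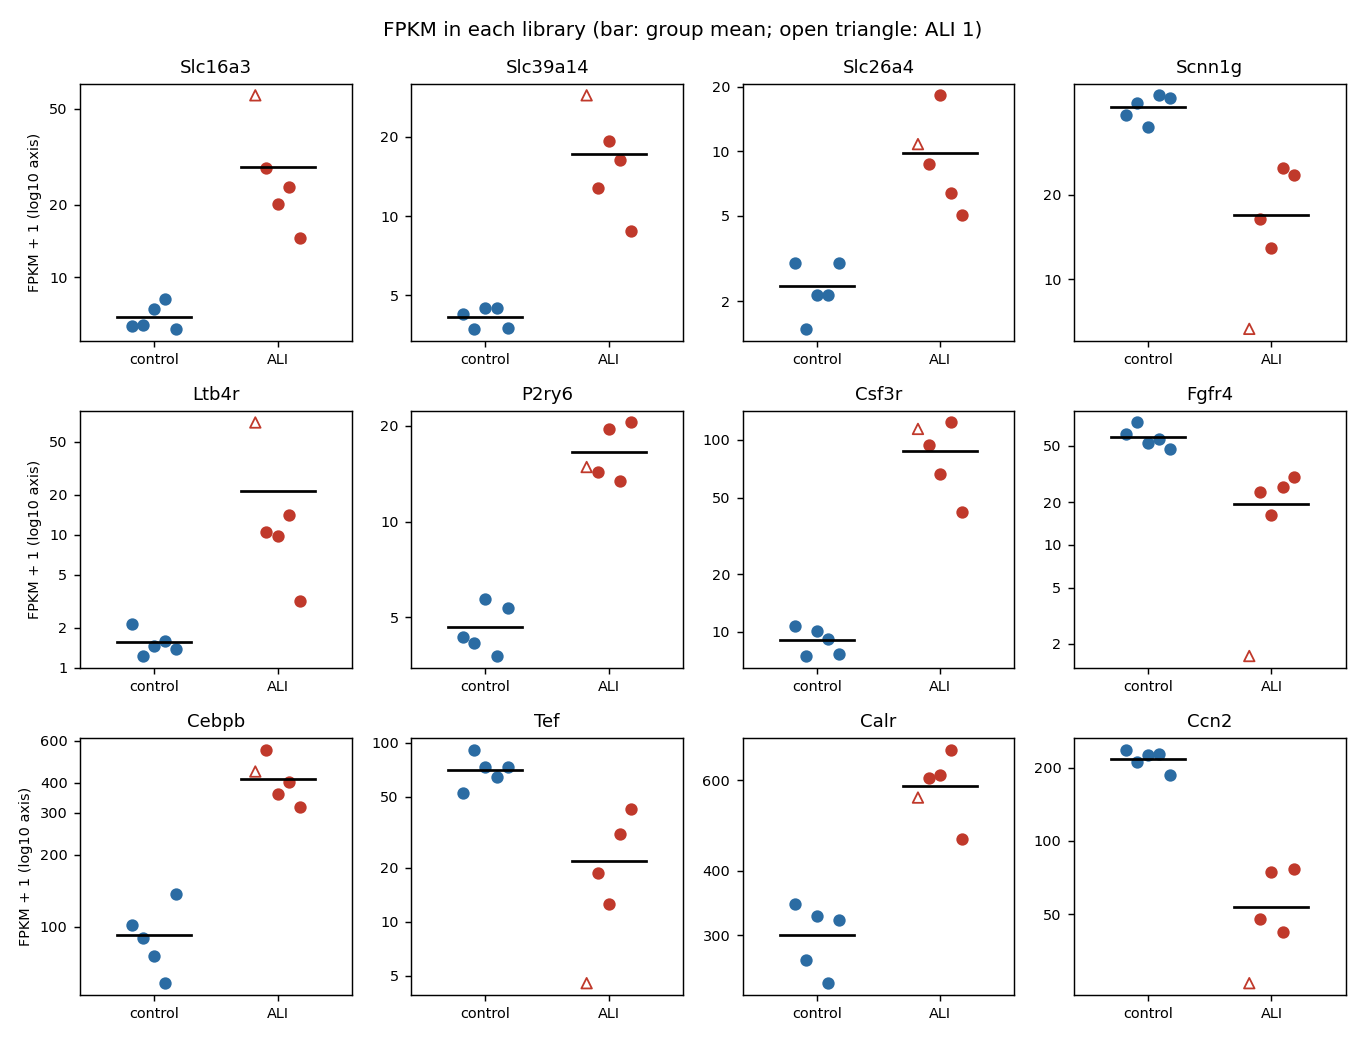
FPKM of 12 genes in each library on a log10 axis of FPKM + 1, control 4 to 8 and ALI 1 to 5, with the mean of each group as a bar and ALI 1 as an open triangle. The groups do not overlap in any of the 12 genes, which the naming rule required.

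Cytokine receptors had 9 rises and 6 falls among 49. Il1r2, the decoy receptor that binds interleukin 1 without signalling, measured 4.25, 1.697, 1.14, 1.04 and 1.76 FPKM in control 4 to 8 and 248, 89.3, 57.2, 115 and 19.5 FPKM in ALI 1 to 5, a log2 fold change of 4.82 ± 0.48 (SE, adjusted p = 1.25e-05). Csf3r, the receptor for granulocyte colony-stimulating factor, measured 9.77, 6.48, 9.16, 8.18 and 6.65 FPKM in control 4 to 8 and 113, 93.2, 65.1, 122 and 41.2 FPKM in ALI 1 to 5, a log2 fold change of 3.20 ± 0.23 (SE, adjusted p = 1.42e-06). All injured lungs were above all controls for both. ALI 5, which had the lowest neutrophil marker sum of the injured lungs, was the lowest, but both genes are part of that sum. Csf2rb, the shared beta chain of the GM-CSF, interleukin 3 and interleukin 5 receptors, added after its value was seen, rose from 11.4 ± 2.34 to 52.7 ± 15.7 FPKM (2.09 ± 0.20). The oncostatin M receptor Osmr rose (1.07 ± 0.26) while the LIF receptor Lifr fell (-1.70 ± 0.46). Both were added after their values were seen and overlapped between the groups. Crlf3, another member of the list, fell (-0.61 ± 0.13). Lifr lost its call without control 8 (adjusted p = 0.0522). Cytokine receptors had 2 to 3 falls without control 6 or 8.

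Pattern recognition, C-type lectin and scavenger receptors had 19 rises and 4 falls among 70, and a median of 0.22. Clec4a2, a C-type lectin of myeloid cells, rose from 3.34 ± 1.296 to 19.2 ± 4.499 FPKM (2.25 ± 0.23). Its relative Clec4b2 was 0.191 to 11.997 FPKM in the means (3.26 ± 0.32), but reached 1 FPKM in no control library and so passed the filter only through ALI. Clec4e, the receptor Mincle, which binds mycobacterial and damaged-cell glycolipids, rose from 9.198 ± 5.804 to 34.4 ± 9.79 FPKM (1.95 ± 0.35), and Tlr2, the receptor for bacterial lipopeptides, rose from 6.84 ± 3.82 to 21.5 ± 2.89 FPKM (1.67 ± 0.29). Both were added after their values were seen. Ager, the receptor RAGE, which in lung marks alveolar type I cells, fell from 1278 ± 254 to 583 ± 247 FPKM, a log2 fold change of -1.27 ± 0.32 (SE, adjusted p = 0.0131). The lectin Clec12b also fell (-1.09 ± 0.20). The neutrophil marker sum, 43.4 to 85.1 FPKM in control and 1262 to 15821 FPKM in ALI, was higher in ALI as these rising myeloid receptors were. Integrins had 3 rises and 3 falls among 21. Itgam, the CD11b chain of Mac-1 on neutrophils and macrophages, rose (1.74 ± 0.18). The laminin-binding Itga3 (-0.55 ± 0.15) and Itga8, a chain of mesenchymal cells (-1.18 ± 0.37), fell. Itga3 lost its call without control 5 (adjusted p = 0.0501), and Itga8 without control 5, 6, 7 or 8 or ALI 3 (adjusted p up to 0.0826). Itga8 stood at -0.74 without ALI 1. Integrins had 5 falls without control 4 or ALI 5. Pattern recognition, lectin and scavenger receptors had 2 falls without control 6 or 8.

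Falls outnumbered rises among growth factor and guidance receptors. Receptor tyrosine kinases had 0 rises and 9 falls among 42, with a median of -0.42. Fgfr4, a fibroblast growth factor receptor, measured 59.5, 72.3, 51.9, 54.9 and 46.4 FPKM in control 4 to 8 and 0.643, 22.7, 15.2, 24.6 and 29.4 FPKM in ALI 1 to 5, a log2 fold change of -2.06 ± 0.57 (SE, adjusted p = 0.0227). Every injured lung was below every control, and ALI 1 was the lowest. Fgfr3 fell from 82.02 ± 19.1 to 36.8 ± 16.2 FPKM (-1.29 ± 0.34). The ephrin receptor Epha2 (-1.14 ± 0.14) and the endothelial VEGF receptor Kdr (-0.96 ± 0.22) fell too, both added after their values were seen, and Kdr overlapped between the groups. Semaphorins, plexins, ephrins, slits and netrins, which steer axons, vessels and epithelium, had 3 rises and 11 falls among 46 and a median of -0.50. Sema3e, a ligand of the endothelial receptor plexin D1, fell from 22.1 ± 5.58 to 7.65 ± 4.25 FPKM (-1.59 ± 0.36), and Sema3b fell (-1.39 ± 0.34). Sema7a, a membrane-anchored semaphorin of immune cells, rose from 41.3 ± 8.995 to 91.7 ± 23.5 FPKM (1.12 ± 0.28), and Sema6b rose (1.0 ± 0.22). Fgfr4 lost its call without control 5 (adjusted p = 0.0556). Fgfr4 stood at -1.29 without ALI 1. Semaphorins had 6 rises and 12 falls with median-of-ratios scaling.

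Nuclear receptors had 1 rise and 10 falls among 30, 36.7% called, and a median of -0.49. Pparg, the lipid-sensing factor of alveolar macrophages and adipocytes, measured 16.5, 10.2, 10.8, 13.5 and 13.3 FPKM in control 4 to 8 and 2.75, 6.82, 4.98, 8.15 and 7.101 FPKM in ALI 1 to 5, a log2 fold change of -1.04 ± 0.21 (SE, adjusted p = 0.00362). The glucocorticoid receptor Nr3c1 fell from 39.99 ± 3.67 to 27.96 ± 5.66 FPKM (-0.52 ± 0.13). Nr4a1, an immediate early receptor (-1.23 ± 0.26), fell with overlap between the groups. The rise was Nr1h3, the oxysterol receptor LXR alpha (0.55 ± 0.12), also with overlap. Nr4a1 was added after its value was seen, as was Nr1h3. Nuclear receptors had 6 falls without control 5 or 7.

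Transcription factors other than nuclear receptors numbered 349 tested, of which 22 rose and 63 fell (24.4% called), with a median of -0.30. The bZIP family had 8 rises and 11 falls among 50. Cebpb, a driver of acute phase and emergency granulocyte genes, measured 101, 88.7, 74.4, 56.96 and 136 FPKM in control 4 to 8 and 445, 550.2, 360.1, 402 and 317 FPKM in ALI 1 to 5, a log2 fold change of 2.20 ± 0.33 (SE, adjusted p = 0.000474). Nfe2, a factor of megakaryocytes and red cell precursors that granulocytes also express, rose from 4.61 ± 1.12 to 25.3 ± 21.03 FPKM (1.98 ± 0.32). Tef, a PAR bZIP factor whose level follows the circadian clock, measured 51.6, 90.5, 71.8, 62.99 and 72.1 FPKM in control 4 to 8 and 3.54, 17.7, 11.5, 29.8 and 41.8 FPKM in ALI 1 to 5, a log2 fold change of -2.04 ± 0.43 (SE, adjusted p = 0.00466). It was lower in every injured lung. Arntl, the clock activator BMAL1, rose from 3.61 ± 1.25 to 9.13 ± 1.75 FPKM (1.16 ± 0.20), and the clock repressors Per2 (-2.28 ± 0.31) and Per3 (-2.31 ± 0.49) fell. The hour at which lungs were taken is not given in the sources used here, so time of day and injury cannot be told apart in these genes. Fosb, an immediate early AP-1 member added after its value was seen, measured 145, 71.8, 36.1, 25.3 and 6.98 FPKM in control 4 to 8 and 0.835, 10.3, 4.29, 2.42 and 3.404 FPKM in ALI 1 to 5, a log2 fold change of -3.12 ± 0.61 (SE, adjusted p = 0.00294). The groups overlapped and the controls were widely spread. Crebrf fell (-0.73 ± 0.22). Crebrf lost its call without control 6, 7 or 8 or ALI 3 (adjusted p up to 0.0803). Crebrf stood at -0.48 without ALI 1. The bZIP family had 7 falls without control 6 or 7, and more rises than falls without control 6 (8 and 7) or control 7 (8 and 7).

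ETS factors had 2 rises and 5 falls among 24. Spi1, the PU.1 factor of macrophages and neutrophils, measured 46.2, 44.2, 43.1, 47.5 and 39.6 FPKM in control 4 to 8 and 152, 96.996, 94.97, 86.5 and 72.4 FPKM in ALI 1 to 5, a log2 fold change of 1.13 ± 0.15 (SE, adjusted p = 0.000175). Fli1, another ETS factor of blood cells and endothelium, rose (0.56 ± 0.15). Homeobox factors had 2 rises and 8 falls among 41. Hopx, an unusual homeobox protein of alveolar type I cells, fell from 719 ± 82.7 to 353 ± 81.4 FPKM, a log2 fold change of -1.05 ± 0.16 (SE, adjusted p = 0.000409). Irx5 fell (-0.86 ± 0.22), and Nkx2-1, the master factor of lung epithelium, added after its value was seen, fell from 149 ± 15.6 to 95.1 ± 24.1 FPKM (-0.68 ± 0.17). The summed lung markers, 27158 to 38645 FPKM in control and 12819 to 25814 FPKM in ALI, were lower in ALI as Hopx and Nkx2-1 were. Of the single markers, Sftpb, Ager and Scgb1a1 were called lower. Sftpc (-0.73, adjusted p = 0.124) and Sftpa1 (-0.11, adjusted p = 0.681) were not called. Prrx1, a factor of mesenchymal cells, rose (1.07 ± 0.24). ETS factors had 1 to 2 falls without control 5, 6, 7 or 8 or ALI 2 or 3, and more rises than falls without control 5 (2 and 1), control 6 (2 and 1), control 7 (2 and 1) or control 8 (2 and 1).

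Forkhead factors had 1 rise and 7 falls among 19, 42.1% called, with a median of -0.55. None met every condition for naming. The most abundant, the mesenchymal factor Foxf1, was 139.9 to 92.9 FPKM in the means and was not called (-0.75 ± 0.30). The epithelial factors Foxa1 (-0.86 ± 0.23) and Foxa2 (-0.71 ± 0.17), added after their values were seen, fell with overlap between the groups. KLF, SP, EGR and GLI factors had no rise and 13 falls among 78, with Klf6 (-0.83 ± 0.19) and Klf5 (-0.69 ± 0.14) lower. The list of SOX, GATA, T-box, TEAD, RUNX and TCF factors also held members of other families, E2f2 and Grhl2 among them. It had 2 rises and 11 falls among 72. Gata2 (-1.15 ± 0.37), a factor of endothelium and mast cells, and Grhl2 (-0.67 ± 0.15), a factor of epithelial junctions, fell, and the cell cycle factor E2f2 rose (0.62 ± 0.18). Gata2 lost its call without control 4, 5, 6, 7 or 8 or ALI 3 (adjusted p up to 0.0908), and E2f2 without control 8 or ALI 3 (adjusted p up to 0.0583). Foxf1 was called without ALI 5 (adjusted p = 0.0374). Gata2 stood at -0.69 without ALI 1. KLF, SP, EGR and GLI factors had 5 to 8 falls without control 5, 6, 7 or 8 or ALI 1, 2 or 3, and 22 falls without control 4. SOX, GATA, T-box, TEAD, RUNX and TCF factors had 3 to 6 falls without control 5, 6, 7 or 8 or ALI 2. Forkhead factors had 3 to 4 falls without control 5, 6, 7 or 8 or ALI 1, 2 or 3, and 11 falls without control 4 or ALI 5.

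Basic helix-loop-helix factors had 7 rises and 7 falls among 50. Besides Arntl, Msc rose (1.33 ± 0.22). Hif3a, a member of the hypoxia factor family that can restrain the others (-1.72 ± 0.45), Srebf1, the activator of fatty acid synthesis (-1.02 ± 0.25), and the Notch target Hes1 (-1.0 ± 0.21) fell. STAT and IRF factors, the carriers of interferon and cytokine signals, had 0 rises and 1 fall among 15, 6.67% called. Stat3 measured 51.1, 59.8, 63.9, 61.6 and 62.7 FPKM in control 4 to 8 and 102, 53.3, 62.7, 80.6 and 55.9 FPKM in ALI 1 to 5, a log2 fold change of 0.20 ± 0.17 (SE, adjusted p = 0.388). Irf1 (-0.23 ± 0.13) was not called either, with an adjusted p of 0.217, and the most abundant member, Irf3, was at 116 to 100.2 FPKM in the means (-0.30 ± 0.25). Stat3 and Irf1 were added after their values were seen. Transcript levels of STAT genes do not measure the phosphorylation through which they act. STAT and IRF factors had 1 rise and 0 falls with median-of-ratios scaling.

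Hippo and hedgehog pathway genes had 1 rise and 13 falls among 36, 38.9% called, with a median of -0.52. Ccn2, connective tissue growth factor, whose promoter window is printed above with its 3 TEAD letter matches, measured 237, 211, 225, 226 and 187 FPKM in control 4 to 8 and 24.97, 46.9, 73.3, 41.1 and 75.5 FPKM in ALI 1 to 5, a log2 fold change of -2.13 ± 0.28 (SE, adjusted p = 0.000155). The controls lay close together and every injured lung was far below them. Of 3 other targets of YAP and TEAD, added after their values were seen, 2 fell: Amotl2, an angiomotin (-1.21 ± 0.26), and Ccn1 (-1.14 ± 0.25), the latter with overlap. The other, the muscle and endothelial protein Ankrd1, was not called (-0.08 ± 0.34). It measured 14.7, 17.2, 9.95, 11.7 and 14.6 FPKM in control 4 to 8 and 43.6, 8.62, 10.8, 8.79 and 8.41 FPKM in ALI 1 to 5. ALI 1 was above every control and ALI 2, 4 and 5 below every control, and without ALI 1 the fold change was -0.51. The hedgehog ligand Shh fell from 16.3 ± 6.65 to 5.49 ± 2.56 FPKM (-1.47 ± 0.33). The rise was Mob1a, a cofactor of the LATS kinases that inhibit YAP (0.36 ± 0.09). Notch pathway genes had 1 rise, the Notch regulator Dtx2 (0.48 ± 0.16), and 3 falls among 29, Hes1 (-1.0 ± 0.21) among them. Dtx2 lost its call without control 4, 5, 6, 7 or 8 or ALI 2, 3 or 4 (adjusted p up to 0.0939). Ankrd1 was called without ALI 1 (adjusted p = 0.0355). Hippo and hedgehog pathway genes had 7 to 8 falls without control 5 or 8.

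Growth factors and IGF binding proteins had 4 rises and 14 falls among 49. Esm1, endocan, a proteoglycan that lung endothelium secretes, measured 33.1, 45.2, 49.6, 12.3 and 27.3 FPKM in control 4 to 8 and 0.855, 10.4, 2.05, 5.68 and 6.66 FPKM in ALI 1 to 5, a log2 fold change of -2.63 ± 0.46 (SE, adjusted p = 0.00145). All injured lungs were below all controls. Angptl4, an inhibitor of lipoprotein lipase, measured 0.788, 4.76, 6.06, 5.802 and 5.63 FPKM in control 4 to 8 and 66.5, 18.5, 31.6, 22.04 and 14.2 FPKM in ALI 1 to 5, a log2 fold change of 2.43 ± 0.40 (SE, adjusted p = 0.000963). Vegfd, a lymphatic growth factor, rose (1.51 ± 0.20) and Igfbp2 fell (-1.61 ± 0.31). Vegfa, which in lung comes largely from alveolar epithelium, fell from 474 ± 65.2 to 203 ± 106 FPKM (-1.53 ± 0.42), and Areg, an EGF receptor ligand, fell (-1.49 ± 0.36). Fgf10, the mesenchymal ligand that drives lung epithelium, rose (0.56 ± 0.15). These last 3 were added after their values were seen, and Areg and Fgf10 overlapped between the groups. Vegfa lost its call without control 5 (adjusted p = 0.0553). Vegfa stood at -0.97 without ALI 1.

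Feedback regulators, a list of the SOCS, DUSP, Sprouty and RGS families that also held Nfkbie, had 6 rises and 15 falls among 75. Spred3, an inhibitor of Ras signalling, rose (1.76 ± 0.23), Nfkbie, an inhibitor of NF-kB, rose (0.98 ± 0.13), and Rgs6 (-1.36 ± 0.31) and Dusp26 (-1.13 ± 0.23) fell. Phosphodiesterases, cyclases and other cyclic nucleotide genes had 0 rises and 8 falls among 51, with the cyclic AMP sensor Rapgef3, which tightens the endothelial barrier, lower from 61.8 ± 11.9 to 32.6 ± 12.9 FPKM (-1.0 ± 0.30), and Akap11 lower (-0.75 ± 0.17). Rac2, the Rac form of blood cells that the neutrophil oxidase needs, rose from 112 ± 8.197 to 295 ± 70.5 FPKM, a log2 fold change of 1.36 ± 0.14 (SE, adjusted p = 1.75e-05). Rhoc rose (0.94 ± 0.15). Arhgef26 (-1.45 ± 0.27) and Arhgap21 (-0.95 ± 0.25) fell. Rapgef3 lost its call without control 4, 5 or 7 or ALI 3 (adjusted p up to 0.0771). Feedback regulators had 11 rises without control 4, 9 falls without control 5, and 12 rises and 11 falls with median-of-ratios scaling. Phosphodiesterases had 4 to 5 falls without control 5, 6, 7 or 8, and 13 falls without ALI 5.

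Inhibitors of proteases changed on both sides. Serpins and other inhibitors had 10 rises and 6 falls among 39, 41% called. Serpinb1a, an inhibitor of neutrophil elastase, measured 45.6, 47.6, 48.1, 49.7 and 55.7 FPKM in control 4 to 8 and 1281, 323, 323, 372 and 142 FPKM in ALI 1 to 5, a log2 fold change of 2.89 ± 0.38 (SE, adjusted p = 0.000141). Timp1, an inhibitor of matrix metalloproteinases, rose from 34.4 ± 12.5 to 315 ± 161 FPKM (3.05 ± 0.31), while its relative Timp3, which is bound to matrix, fell from 774 ± 211 to 234 ± 133 FPKM (-1.96 ± 0.42). The groups did not overlap in either gene. The airway antiprotease Slpi rose (2.34 ± 0.41) and was added after its value was seen. Reck, a membrane-anchored inhibitor, fell (-1.49 ± 0.35). ADAM, ADAMTS and ADAMTS-like genes had 3 rises and 1 fall among 23. Adam17, which sheds TNF and EGF ligands, rose from 34.4 ± 1.07 to 46.2 ± 4.71 FPKM (0.41 ± 0.09). The fall was Adamtsl5, an ADAMTS-like protein that is not a protease (-1.89 ± 0.42). ADAM, ADAMTS and ADAMTS-like genes had 5 falls without ALI 5, more falls than rises without ALI 4 (1 and 2) or ALI 5 (2 and 5), and 5 rises and 2 falls with median-of-ratios scaling.

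Cell death genes had 11 rises and 4 falls among 43. Birc3, a ubiquitin ligase of TNF signalling, rose from 11.99 ± 2.36 to 39.1 ± 12.8 FPKM (1.59 ± 0.22), and Pmaip1, the BH3-only protein NOXA, rose (1.32 ± 0.27). Ripk3, the kinase of necroptosis, added after its value was seen, rose (1.17 ± 0.18), and Ripk4 fell (-1.07 ± 0.20). Cytoskeletal genes had 24 rises and 11 falls among 100. Fscn1 measured 4.18, 7.99, 8.95, 4.64 and 5.26 FPKM in control 4 to 8 and 53.99, 18.99, 20.8, 18.6 and 22.8 FPKM in ALI 1 to 5, a log2 fold change of 1.88 ± 0.27 (SE, adjusted p = 0.000339). Its window with the NF-kB letters is printed above. Capg, a filament capping protein, rose (1.14 ± 0.15), as did the Arp2/3 subunit Arpc1b (1.10 ± 0.13) and profilin, Pfn1 (1.02 ± 0.16), both added after their values were seen. Gsn, which severs filaments, fell from 1894 ± 354 to 671 ± 285 FPKM, a log2 fold change of -1.61 ± 0.27 (SE, adjusted p = 0.00102). The vesicle motor Myo5b fell (-1.22 ± 0.24). Annexins, galectins and tetraspanins had 6 rises and 4 falls among 42, with the leukocyte tetraspanin Cd53 (0.98 ± 0.20) and Lgals3bp (0.90 ± 0.15) higher and Anxa8 (-0.86 ± 0.18) lower. Annexins, galectins and tetraspanins had 2 falls without control 6, 7 or 8 or ALI 3, more falls than rises without ALI 4 (5 and 6), and 8 rises and 2 falls with median-of-ratios scaling. Cell death genes had 2 falls without control 5, 6, 7 or 8 or ALI 2 or 3.

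Pla2g2a, whose promoter window is printed above, measured 7.38, 11.97, 30.7, 14.4 and 29.01 FPKM in control 4 to 8 and 156, 224, 580.2, 606 and 419 FPKM in ALI 1 to 5, a log2 fold change of 4.33 ± 0.50 (SE, adjusted p = 4.55e-05). Pla2g7, the acetylhydrolase that inactivates platelet-activating factor, rose from 7.59 ± 2.52 to 51.6 ± 14.6 FPKM (2.61 ± 0.23). Sphingolipid and phospholipid enzymes had 11 rises and 12 falls among 103. Kdsr, a step of ceramide synthesis (-0.60 ± 0.15), and Enpp1, a pyrophosphatase (-0.98 ± 0.29), fell. Fatty acid oxidation and peroxisome genes had 4 rises and 8 falls among 81. Acsl3 (-0.71 ± 0.19) and Pex10 (-0.54 ± 0.14) fell. Acod1, which makes itaconate in activated macrophages, measured 1.13, 0.759, 2.01, 1.83 and 0.789 FPKM in control 4 to 8 and 17.1, 21.4, 28.5, 5.87 and 16.1 FPKM in ALI 1 to 5, a log2 fold change of 2.92 ± 0.51 (SE, adjusted p = 0.00146). It was near 1 FPKM in the controls. Bst1, an ectoenzyme of NAD metabolism on myeloid cells, rose (1.41 ± 0.16), and the deacylase Sirt5 fell (-0.63 ± 0.16). Their list of tryptophan, NAD and itaconate enzymes had 4 rises and 2 falls among 39. Citric acid cycle enzymes had 3 rises and 1 fall among 39, Mdh2 (0.38 ± 0.10) and Sdhc (0.34 ± 0.09) among the rises. Enpp1 lost its call without control 6, 7 or 8 (adjusted p up to 0.0728), and Acsl3 without control 7 (adjusted p = 0.052). Enpp1 stood at -0.64 without ALI 1. Citric acid cycle enzymes had 6 rises without ALI 1, and 8 rises and 0 falls with median-of-ratios scaling. Fatty acid oxidation and peroxisome genes had 9 rises without ALI 1, 3 to 5 falls without control 5, 6, 7 or 8 or ALI 1 or 2, more rises than falls without ALI 1 (9 and 4), and 8 rises and 6 falls with median-of-ratios scaling. Sphingolipid and phospholipid enzymes had 17 rises without ALI 1, 3 to 7 falls without control 5, 6, 7 or 8, more rises than falls without ALI 1 (17 and 9), ALI 2 (11 and 10), ALI 3 (10 and 9), control 5 (10 and 7), control 6 (9 and 5), control 7 (10 and 3) or control 8 (10 and 5), and 18 rises and 10 falls with median-of-ratios scaling. Tryptophan, NAD and itaconate enzymes had 4 falls without ALI 4, and 9 rises and 2 falls with median-of-ratios scaling.

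Amino acid and nucleotide enzymes rose at single steps. Bcat1, the cytosolic branched-chain aminotransferase, measured 5.499, 3.74, 7.34, 7.96 and 6.74 FPKM in control 4 to 8 and 90.8, 31.8, 24.3, 32.8 and 19.2 FPKM in ALI 1 to 5, a log2 fold change of 2.30 ± 0.31 (SE, adjusted p = 0.000195). Mthfd2, the mitochondrial folate enzyme, rose (1.14 ± 0.22), and its neighbouring step Shmt2, added after its value was seen, rose by less (0.69 ± 0.18). Oat, ornithine aminotransferase, fell (-0.56 ± 0.11). The list had 6 rises and 3 falls among 52. Nucleotide synthesis and salvage enzymes had 11 rises and 3 falls among 60. Ampd3, which deaminates AMP (1.39 ± 0.18), thymidine kinase Tk1 (1.33 ± 0.22) and, added after their values were seen, adenosine deaminase Ada (1.30 ± 0.12) and the ribonucleotide reductase subunit Rrm2 (1.22 ± 0.27), rose. Rrm2 overlapped between the groups. Entpd4, a nucleotidase of the Golgi, fell (-0.78 ± 0.23). Entpd4 lost its call without control 5, 6, 7 or 8 (adjusted p up to 0.0576). Entpd4 stood at -0.50 without ALI 1. Amino acid and one-carbon enzymes had 5 to 8 falls without ALI 4 or 5, more falls than rises without ALI 5 (5 and 8), and 8 rises and 5 falls with median-of-ratios scaling.

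Enzymes of drug and aldehyde metabolism, oxidoreductases and glucuronosyltransferases, had 3 rises and 17 falls among 69, 29% called. Fmo2, a flavin monooxygenase that is the main form in lung, measured 580.3, 997, 970.0, 996 and 979 FPKM in control 4 to 8 and 16.2, 178, 104, 192 and 254 FPKM in ALI 1 to 5, a log2 fold change of -3.01 ± 0.54 (SE, adjusted p = 0.0016). Aldh1a1, which makes retinoic acid, fell from 229.5 ± 35.3 to 40.8 ± 23.6 FPKM (-2.80 ± 0.48). All injured lungs were below all controls for both. Nqo2 (0.76 ± 0.18) and Ugt1a6 (0.81 ± 0.14) rose. Sulfotransferases and glycan enzymes had 6 rises and 11 falls among 97: the dermatan epimerase Dse (0.84 ± 0.14) and Chst12 (0.51 ± 0.10) rose, and St3gal5 (-0.52 ± 0.15) and Sult5a1 (-0.98 ± 0.30) fell. Hormones, neuropeptides and granule genes had 5 rises and 7 falls among 39, with kininogen Kng1 (1.47 ± 0.32) and the activin antagonist Fst (1.42 ± 0.21) higher and endothelin 3, Edn3 (-1.31 ± 0.22), lower. St3gal5 lost its call without control 7 or 8 or ALI 2 (adjusted p up to 0.0701), and Sult5a1 without control 5, 6, 7 or 8 or ALI 2 or 3 (adjusted p up to 0.0919). Sult5a1 stood at -0.64 without ALI 1. Enzymes of drug and aldehyde metabolism had 5 rises without ALI 1. Sulfotransferases and glycan enzymes had 3 to 6 falls without control 5, 6, 7 or 8 or ALI 2, 18 falls without control 4, and more rises than falls without control 8 (5 and 3).

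Of 126 chromatin enzymes 1 rose and 6 fell, 5.56% called against 17.7% of all genes, a difference that was not tested. Hdac7, a deacetylase of endothelium and thymocytes (-1.03 ± 0.34), and the Polycomb reader Cbx7 (-0.79 ± 0.23) fell. Histone genes had 3 rises and 0 falls among 20. None met the naming rule, and the most abundant, H3f3b, was called higher with overlap between the groups (0.49 ± 0.13). Splicing and decay factors had 12 rises and 3 falls among 154. Zc3h12a, the RNase regnase-1 that destroys inflammatory messages, rose from 12.2 ± 1.66 to 42.5 ± 12.7 FPKM, a log2 fold change of 1.68 ± 0.19 (SE, adjusted p = 4.32e-05). The spliceosome core protein Snrpd1 rose (1.04 ± 0.18) and the RNA editing enzyme Adarb1 fell (-1.28 ± 0.31). Hdac7 lost its call without control 5, 6, 7 or 8 or ALI 2 or 3 (adjusted p up to 0.118), and Cbx7 without control 5, 7 or 8 (adjusted p up to 0.0742). Cbx7 stood at -0.51 and Hdac7 at -0.63 without ALI 1. Splicing and decay factors had 7 to 9 falls without control 4 or ALI 5. Chromatin enzymes had 1 to 3 falls without control 5, 6, 7 or 8 or ALI 3, and 14 falls without control 4 or ALI 5.

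Among genes in none of the lists, the largest changes were named by the same rule. The higher genes were S100a8 (6.60 ± 0.49) and S100a9 (6.10 ± 0.47), calcium-binding proteins of neutrophils that also stand in the neutrophil marker sum, the acute phase protein Orm1 (5.89 ± 0.60), the chemokines Cxcl13 (5.63 ± 0.65) and Cxcl6 (3.55 ± 0.67), the neutrophil collagenase Mmp8 (4.94 ± 0.40), the secreted peptide Prok2 (4.23 ± 0.39) and the metallothionein Mt2A (4.14 ± 0.48). Mmp8 stands in that sum too. Orm1 and Cxcl6 reached 1 FPKM in no control library, so they passed the filter only through ALI and had to differ. S100 and metallothionein genes have close copies, and reads may be shared between them. The falls were the P450 genes Cyp2f4 (-2.78 ± 0.59) and Cyp2a1 (-2.57 ± 0.63), Susd2 (-2.77 ± 0.44) and the keratin Krt76 (-2.45 ± 0.31), with Mamdc2 (-2.17 ± 0.52) and the collagen chain Col6a5 (-2.15 ± 0.36) after the clock genes Per3 and Per2.

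Without ALI 1, the changes of 1206 of the 1291 genes called lower and of 703 of the 1040 called higher were closer to 0. Of 1040 genes called higher, 939 were called higher without ALI 1, and of 1291 called lower, 986 were called lower. No gene called in both fits changed sign. The median of the genes called lower moved from -0.82 to -0.66, while the median of the genes called higher moved from 0.76 to 0.73. In all 406 calls were lost and 316 were new. Transcription factors went from 22 higher and 63 lower to 23 and 48, and transporters from 30 and 58 to 41 and 48.

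**Figure D4:**
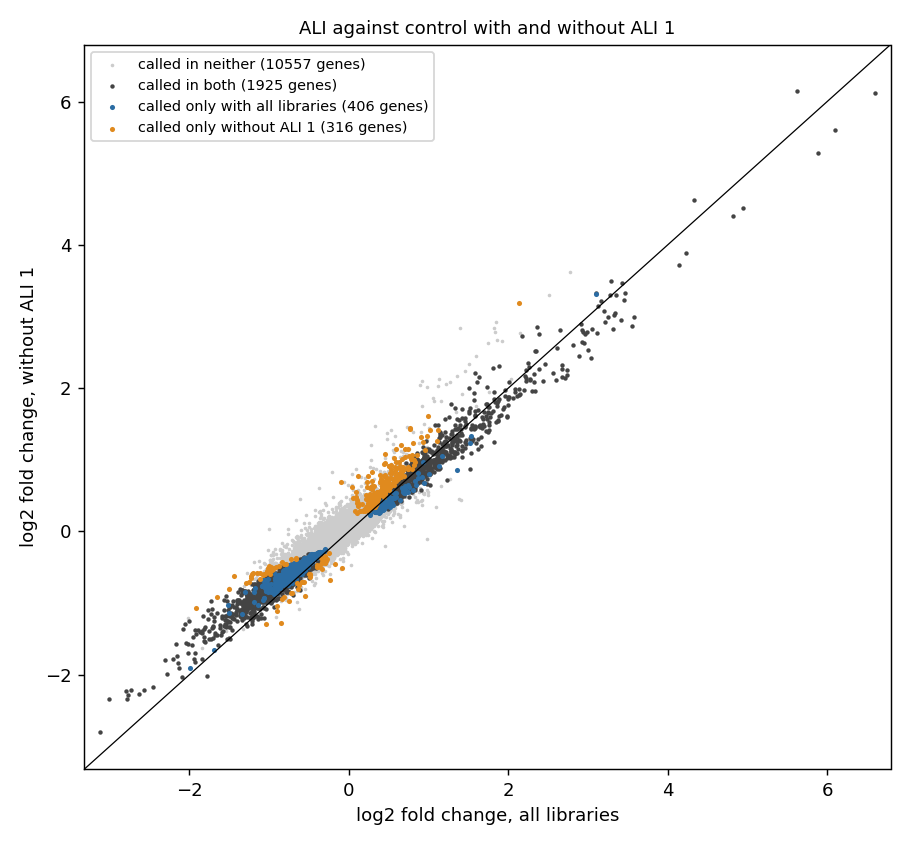
Log2 fold change of every tested gene (ALI against control) with all libraries on the x axis and without ALI 1 on the y axis, coloured by where the gene was called, with the line of equal values. Points of genes called lower lie mostly above the line, closer to 0 on the y axis, and 1206 of 1291 do so.

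Of the calls lost without ALI 1, chosen after their values were seen, Camp, the neutrophil antimicrobial peptide cathelicidin, was called with all libraries (1.35 ± 0.45) and stood at 0.85 with adjusted p = 0.0546 without it. It was not called with median-of-ratios scaling, and its groups overlapped. Cav1, the caveolae protein of endothelium and alveolar type I cells (-0.93 ± 0.29), Notch1 (-0.74 ± 0.24) and Tbx2, a T-box factor of lung mesenchyme (-1.08 ± 0.36), were lower with all libraries. Cav1 and Tbx2 overlapped between the groups. Without ALI 1 they stood at -0.65, -0.48 and -0.68, with adjusted p of 0.0523, 0.0559 and 0.0587. Other genes were called only when ALI 1 was left out. Eln, which encodes elastin, measured 55.7, 52.1, 36.5, 40.5 and 29.5 FPKM in control 4 to 8 and 10.7, 212, 119, 60.8 and 109 FPKM in ALI 1 to 5. ALI 1 lay below every control and ALI 2 to 5 above every control, and the fold change went from 0.77 (adjusted p = 0.318) to 1.42 (adjusted p = 0.0029). Vcam1, an endothelial adhesion molecule, went from 0.66 to 1.01, Stab1, a scavenger receptor of macrophages and endothelium, from 0.59 to 1.14, and the incretin receptor Glp1r from 0.46 to 1.08. Their adjusted p moved from 0.11, 0.369 and 0.527 to 0.00035, 0.00687 and 0.00719, and Vcam1 was also called with median-of-ratios scaling. Fcrl2, an Fc receptor-like gene listed at 0 in ALI 1, measured 6.55, 2.52, 2.74, 1.85 and 3.64 FPKM in control 4 to 8 and 0, 47.2, 31.4, 12.7 and 99.3 FPKM in ALI 1 to 5, and went from 2.13 to 3.19 (adjusted p = 0.000461). Camp lost its call without control 4, 6, 7 or 8 or ALI 1, 2 or 3 (adjusted p up to 0.117), Cav1 without control 5, 6, 7 or 8 or ALI 1, 2 or 3 (adjusted p up to 0.0814), and Notch1 without control 4, 5, 6, 7 or 8 or ALI 1 or 3 (adjusted p up to 0.103). Tbx2 lost its call without control 5, 6, 7 or 8 or ALI 1, 2 or 3 (adjusted p up to 0.123). Camp stood at 0.85, Notch1 at -0.48 and Tbx2 at -0.68 without ALI 1.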

How the data were processed

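Total lung RNA was sequenced in 15 libraries, grouped by their labels. Reads went through cutadapt, HISAT2 and StringTie with the build Rnor_6.0, per the submitters' processing notes, with versions and strand setting not given in the sources used here. The deposited values are FPKM per gene, per the file headers, with no read counts, so depth is unknown, and reads of gene copies and of overlapping genes cannot be told apart. Here FPKM were turned into log2(FPKM + 1). Limma 3.58.1 in R 4.3.3 (trend and robust settings, tested on simulated data) fitted all 3 groups, and ALI was compared with control, two-sided, with Benjamini-Hochberg adjustment over 13204 genes. The simulated data had the same spread in every group and no outlying library, so they do not cover a library such as ALI 1. In them 69% of 2-fold changes were called. Means and SDs are of FPKM, and SEs are limma's.

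The 65 gene lists are defined by symbol. Members and lists were chosen with earlier results of these data known, and non-members caught by a symbol pattern were removed by name before values were looked up. Up to 2 genes per list and direction were named: those with the largest change among genes whose symbol stands on 1 line, that were called with all libraries, without ALI 1 and with median-of-ratios scaling, without overlap between the groups and at or above 5 FPKM on average in the higher group. Where none qualified, the most abundant member was named. The 8 largest rises and falls in no list were added. The text says where a gene was chosen otherwise. A few genes that the rule names, and 1 list, are not reported here. Promoter windows are RefSeq's, from GRCr8, matched by symbol. Alternatives were another scaling, pseudocount, filter, limma setting, sample set, replicate block and leaving out each library.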

Additional observations from a re-analysis of the deposited data

Results flagged for a closer look

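A library was marked where its gap to the nearest of the other 4 of its group was over 0.71 of the range of the group, Dixon's limit for 5 values, on log2(FPKM + 1) for genes. Of 480 groups of 5 looked at (237 genes and 3 library measures in both groups), 58 were marked. Chance marks about 1 in 20 where groups are picked without regard to their values, and genes of 1 library are not independent. Some of these genes were named because their call changed without ALI 1. The marks of ALI 1 can therefore not be set against that rate. ALI 1 took 35 of the marks. The marks were set on values without rescaling, and the median-of-ratios size factor of ALI 1 was 0.714. It was 1.02 to 1.10 in the other libraries compared, so the typical gene was listed lower in ALI 1. Over whole libraries, ALI 1 stood apart with a mitochondrial share of 37.7% of summed FPKM and with 11865 genes at 1 FPKM or more, and control 4 with a summed level of 554527 FPKM. ALI 1 lay above the rest of its group for Ankrd1 at 43.6 FPKM, Atf3 at 8.31 FPKM, Fscn1 at 53.99 FPKM and Psma3l at 77.5 FPKM. ALI 1 lay below the rest of its group for Adamtsl5 at 0.283 FPKM, Aldh1a1 at 5.66 FPKM, Aqp5 at 14.5 FPKM, Atp2c2 at 1.901 FPKM, Ca11 at 0.447 FPKM, Cbx7 at 9.93 FPKM, Clec12b at 1.58 FPKM, Cxcr1 at 1.57 FPKM, Enpp1 at 1.23 FPKM, Entpd4 at 8.13 FPKM, Fgfr3 at 9.74 FPKM and Fgfr4 at 0.643 FPKM. The same library was also below for Glp1r at 6.32 FPKM, Gprc5a at 21.2 FPKM, Hdac7 at 13.05 FPKM, Hes1 at 25.02 FPKM, Itga8 at 4.84 FPKM, Nkx2-1 at 53.8 FPKM, Sema3b at 5.57 FPKM, Shh at 1.301 FPKM, Slc15a2 at 1.06 FPKM, Slc35e4 at 8.45 FPKM, Slc39a2 at 0.97 FPKM and Slco1a2 at 3.196 FPKM. The same library was also below for Srebf1 at 5.98 FPKM, Stab1 at 2.52 FPKM, Sult5a1 at 0.437 FPKM, Vcam1 at 11.02 FPKM and Vegfa at 34.2 FPKM. ALI 3 lay below the rest of its group for Klf6 at 14.1 FPKM. Control 4 lay above the rest of its group for H3f3b at 1069.6 FPKM, Psmb10 at 92.1 FPKM, Sdf2l1 at 26.9 FPKM and Slc25a33 at 70.2 FPKM. Control 4 lay below the rest of its group for Angptl4 at 0.788 FPKM, Cav1 at 399.9 FPKM, Cxcl6 at 0.0482 FPKM, Fmo2 at 580.3 FPKM, Lifr at 9.62 FPKM, Myo5b at 5.904 FPKM and Timp3 at 403 FPKM. Control 5 lay above the rest of its group for Ager at 1722 FPKM, Asic1 at 12.6 FPKM, Cbx7 at 50.1 FPKM, Gsn at 2519.7 FPKM, Hopx at 864 FPKM, Itga3 at 81.6 FPKM and Rnf39 at 17.9 FPKM. Control 5 lay below the rest of its group for Cd53 at 33.7 FPKM and Slc28a2 at 6.78 FPKM. Control 8 lay below the rest of its group for Nr4a1 at 45.7 FPKM. No cause of these values was tested.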

How the results depend on the processing

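The 237 genes named kept their direction in every alternative run, except for 2 that were not called. Irf3 stood at 0.0119 with array weights, and Ankrd1 at 0.0612 with median-of-ratios scaling and at -0.509 (without ALI 1) to 0.0523 (without ALI 5) with 1 library left out. Of the 226 named genes called, 32 lost their call in a fit of these 10 libraries alone (adjusted p up to 0.107): Aqp5, Arhgap21, Atp2c2, Camp, Cav1, Cbx7, Crebrf, E2f2, Enpp1, Entpd4, Fgf10, Fgfr3, Fgfr4, Gata2, Hdac7, Hspa5, Itga8, Lifr, Mdh2, Mob1a, Notch1, Npr1, Rapgef3, Sdhc, Shmt2, Sirt5, Slc39a2, St3gal5, Sult5a1, Tbx2, Tbxa2r and Vegfa. With every gene tested, 9 lost it (Camp, Cav1, Dtx2, Gata2, Hdac7, Itga8, Notch1, Ramp3 and Tbx2). Adding 0.1 ended 5 calls (Hdac7, Hif3a, Notch1, Sult5a1 and Tbx2), rescaling without mitochondrial genes 3 (Camp, Dtx2 and Mob1a), limma without trend and robust settings 3 (Hdac7, Notch1 and Tbx2), and testing genes averaging 5 FPKM or more 2 (Camp and Hdac7). The replicate block left 78 of the 226. Calls lost with 1 library left out stand beside the genes. Counts moved more. Beside 2331 genes called, 1307 were called in a fit of these 10 libraries alone (700 higher and 607 lower, so that the majority turned) and 3910 with array weights (1788 higher and 2122 lower). With the replicate number as a block (the replicate block), 318 genes were called, 245 higher and 73 lower, and 244 of them changed at least 2-fold. The groups share only the numbers 4 and 5, which correlate at -0.33 and 0.08 in their deviations from the group means. So few correlations cannot decide if samples of the same number were paired or handled together, and the labels do not say. With 1 library left out, 1533 to 2876 genes were called, 797 to 1220 higher and 721 to 1751 lower, and 522 to 984 changed at least 2-fold. The lowest of these counts came without control 7 (1533) for all calls and without control 5 (721) for falls, against 1544 without control 5 for all calls, and 779, 736 and 754 falls without controls 6, 7 and 8. Median-of-ratios scaling, rescaling without mitochondrial genes, limma without trend and robust settings, adding 0.1 in place of 1, testing every gene and testing those averaging 5 FPKM or more stayed within 1.5 times of each count. The FPKM values carry no read counts, so low genes have no counting interval.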
